A study of Mus musculus with 36 samples.

Results

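The nuclear genes of 10 complex I assembly factors, Ndufaf1, Ndufaf2, Ndufaf3, Ndufaf4, Ndufaf5, Ndufaf6, Ndufaf7, Acad9, Ecsit and Timmdc1, were followed across mouse brain samples. The 10 genes were taken by name from a count table of 56980 genes, and all 10 were among the 25601 genes that passed the filter on low counts. Their identifiers in the table are ENSMUSG00000027305, ENSMUSG00000068184, ENSMUSG00000070283, ENSMUSG00000028261, ENSMUSG00000027384, ENSMUSG00000050323, ENSMUSG00000024082, ENSMUSG00000027710, ENSMUSG00000066839 and ENSMUSG00000002846, in that order. The series measured polyA-selected RNA of 36 samples from mice aged 37 to 45 days. The mice had the genotype label ndufs4-ko (KO) or wild type (WT). They received CP2, an inhibitor of complex I, or vehicle by gavage on 3 consecutive days. Sample titles also carry the letter F or M. With the letter F there were 5 samples each of WT vehicle, WT CP2, KO vehicle and KO CP2. With the letter M there were 3 samples each of WT vehicle and KO vehicle and 5 samples each of WT CP2 and KO CP2. The samples are labelled brain, the series' design text gives hippocampus and cortex, and the construction of the knockout allele, the strain and the dose are not given in the sources used here.

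Complex I is the entry point of the respiratory chain. It oxidises NADH and passes the electrons to ubiquinone while pumping protons across the inner mitochondrial membrane, and its subunits are encoded in both the nucleus and the mitochondrial DNA. Assembly factors are not part of the finished enzyme. They hold intermediates together, modify subunits or insert them, and inherited defects in many of them cause complex I deficiency, often with brain disease of the Leigh type. Ndufaf1, Ecsit and Acad9 encode core members of the mitochondrial complex I intermediate assembly (MCIA) complex, which builds the membrane arm around the subunit ND2, and Acad9 is also an acyl-CoA dehydrogenase. Timmdc1 encodes an inner membrane protein that acts on the membrane arm near ND1. Ndufaf3 and Ndufaf4 encode partners that bind each other and act in the module that binds ubiquinone. Ndufaf5 and Ndufaf7 encode proteins with a methyltransferase fold, and NDUFAF5 hydroxylates an arginine of NDUFS7. Ndufaf6 encodes a protein needed for early steps around ND1. Ndufaf2 encodes a paralogue of the subunit NDUFA12 that sits in NDUFA12's place on late intermediates, and NDUFS4, the subunit targeted in these mice, belongs to the same late step.

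Libraries held 46124548 to 88559920 gene counts. Members had from 268 counts (Ndufaf6) to 2846 counts (Acad9) in a sample, for which counting alone gives an error of 6.11% and 1.87%. The targeted gene Ndufs4 was detected in every sample, and in all 4 comparisons within a letter and treatment the KO values were all under the WT values. The log2 CPM differences were -0.63 (F, vehicle), -0.66 (M, vehicle), -0.55 (F, CP2) and -0.35 (M, CP2), so its RNA was reduced and not absent. CPM (counts scaled to a common TMM library size) of Xist was 439 to 798 in F samples and at most 0.833 in M samples, except for 47.3 in the KO CP2 M sample L291. Ddx3y had the reverse pattern, with at most 0.214 CPM in F samples and 61.8 to 84.5 CPM in M samples. L291 lay within that M range for Ddx3y, at 80.8 CPM. The gene with the most counts is here the gene that took the largest share of counts in any single sample of the series. This gene was followed in every sample, and its rank in each sample was not examined. In the KO CP2 M sample L266 it took 1.01% of the total, against 4.79% to 5.87% in the other 4 samples of that group. L266 was not alone in this. The WT vehicle M sample L303 also lay below the rest of its group, and the KO vehicle F sample L246 lay above the rest of its group. Apart from L266, L303 and L246, the share of this gene was lower in every F sample than in every M sample. L303 and L246 were left out only singly. Summed neuron markers lay between 4280 and 6730 CPM and oligodendrocyte markers between 7818 and 15120 CPM, with no marker at 0. Markers from outside the named regions were present in every group: 6 choroid plexus genes summed to 196 to 3467 CPM and 6 striatal genes to 150 to 945 CPM. In tissue RNA, fewer cells of a type and less RNA per cell cannot be told apart. The non-genic share, the percentage of reads that the authors' counting assigned to no annotated gene, ran from 5.09% to 13.2%, and it is set beside the results below because it differed between groups.

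All 10 members were expressed in every sample at modest levels. On CPM per kilobase of exon (GENCODE M21 exon lengths), the mean over groups was highest for Ndufaf3 (14.0), Ndufaf5 (13.6), Ecsit (11.97) and Ndufaf1 (11.0). Timmdc1 (8.85), Ndufaf7 (8.04) and Ndufaf4 (6.71) followed. Ndufaf6 (5.27), Acad9 (4.04) and Ndufaf2 (3.59) were lowest. Before division by length Acad9 had the highest mean CPM of the 10 (33.1). Its length of 8192 bases joins all its annotated exons, and the length of the transcripts expressed was not measured. In that annotation 1955 exon bases of Ndufaf2 (65.6%) are shared with the opposite-strand long non-coding gene B230220B15Rik, which had a mean of 1.56 counts. The members lie on chromosomes 2 (Ndufaf1 and Ndufaf5), 3 (Acad9), 4 (Ndufaf4 and Ndufaf6), 9 (Ndufaf3 and Ecsit), 13 (Ndufaf2), 16 (Timmdc1) and 17 (Ndufaf7) in GRCm38.p6. Since the use of strand in counting is not given in the sources used here, reads in such overlaps are uncertain. This also touches Ecsit, where 24.0% of exon bases are shared with the antisense gene Gm16845 (mean 34.9 counts), and Ndufaf3, where 2.64% are shared with Impdh2 (mean 2071 counts). Variation within groups was smallest for Acad9 (mean coefficient of variation 4.76%) and largest for Ndufaf2 (13.0%). Between groups the ratio of the highest to the lowest mean CPM was largest for Ndufaf2 (1.71) and Timmdc1 (1.47) and smallest for Ndufaf7 (1.14). When the 8 groups were put in order of mean CPM, every neighbouring pair of groups overlapped in its sample values for each of the 10 members, so the order separates no neighbours.

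**Figure D1:**
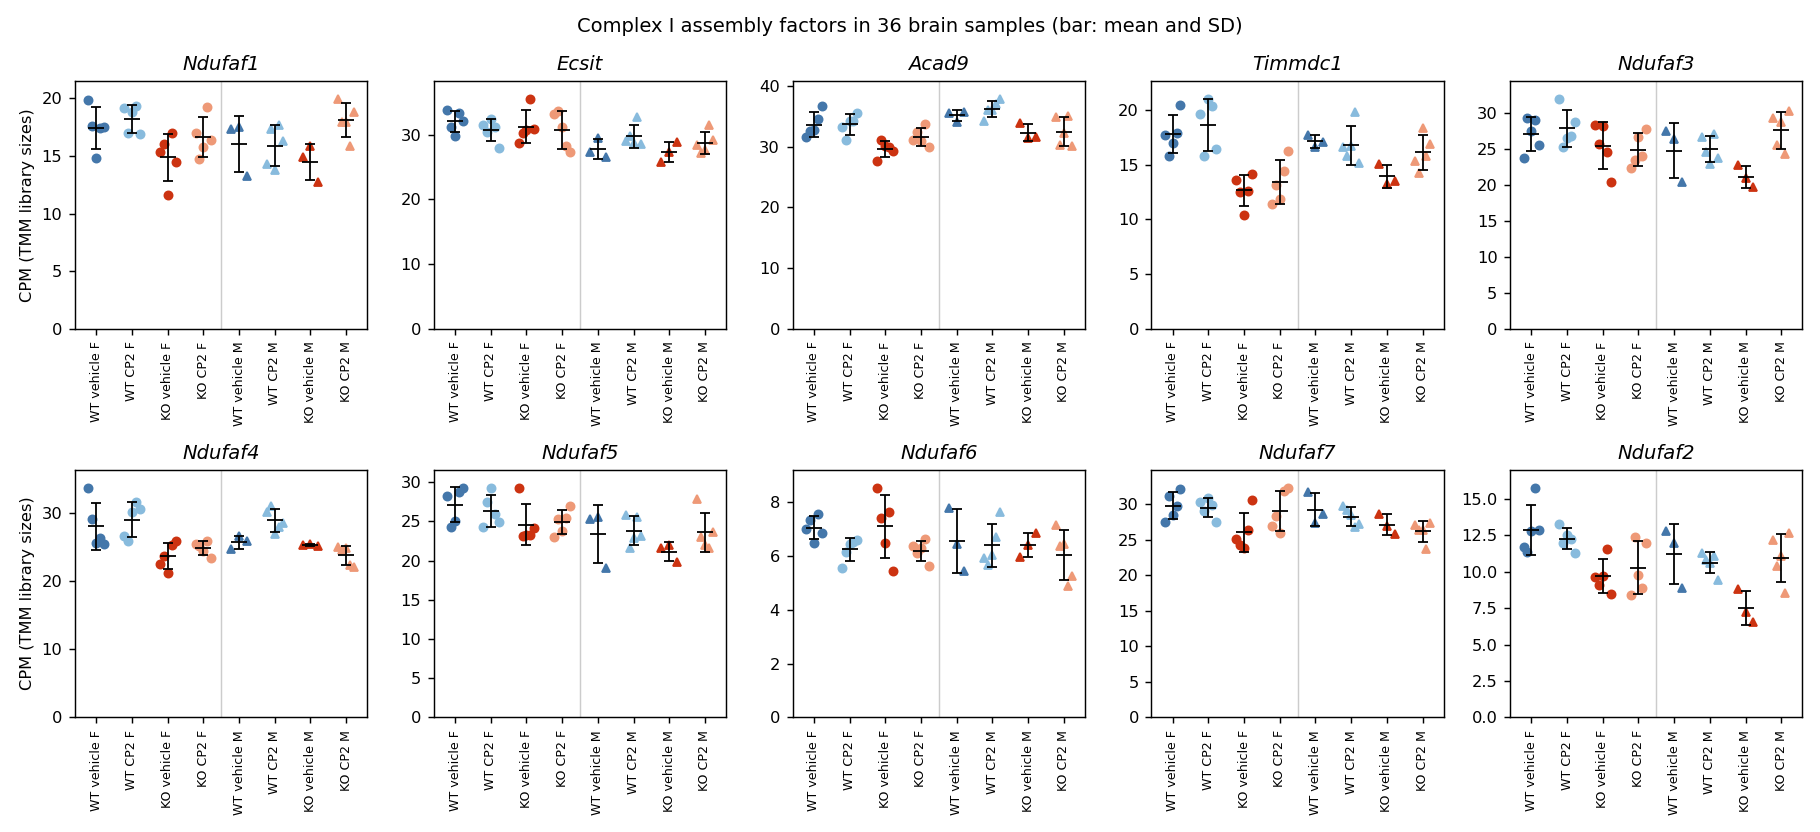
CPM of the 10 members (y axis, from 0) in each of the 36 samples by group (x axis), with circles for F samples and triangles for M samples. Black bars give the mean and SD of 5 samples (3 for the vehicle groups of M). Timmdc1 lies lowest in KO vehicle F at 12.6 CPM and highest in WT CP2 F at 18.6 CPM, and Ndufaf2 lies lowest in KO vehicle M at 7.52 CPM.

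The RefSeq promoter table (GRCm38.p6, 250 bases before to 50 after the start) held 8 of the 10 members, without Ndufaf6 and Acad9. The 3 promoters shown belong to the 3 members that changed with the smallest p-values between genotypes. Capitals mark exact matches, on either strand, to letters that ETS factors (CCGGAAG), NRF1 (GCGCANGCG) or SP factors (GGGCGG) are known to bind. Ndufaf2 lies at chr13:108158576-108158875 (minus strand), Timmdc1 at chr16:38522614-38522913 (minus strand) and Ndufaf4 at chr4:24897833-24898132 (plus strand).
Ndufaf2: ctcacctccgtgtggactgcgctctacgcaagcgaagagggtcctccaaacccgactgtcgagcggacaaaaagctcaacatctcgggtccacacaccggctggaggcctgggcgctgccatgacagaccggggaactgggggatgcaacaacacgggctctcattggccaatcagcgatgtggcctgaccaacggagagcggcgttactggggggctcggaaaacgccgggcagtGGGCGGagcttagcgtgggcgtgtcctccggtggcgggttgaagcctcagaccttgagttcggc
Timmdc1: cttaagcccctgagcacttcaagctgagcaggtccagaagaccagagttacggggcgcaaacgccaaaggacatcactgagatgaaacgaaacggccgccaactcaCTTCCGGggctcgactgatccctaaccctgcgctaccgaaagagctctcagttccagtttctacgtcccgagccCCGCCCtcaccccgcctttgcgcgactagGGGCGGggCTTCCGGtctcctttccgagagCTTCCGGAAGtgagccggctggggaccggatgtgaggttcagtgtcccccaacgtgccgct
Ndufaf4: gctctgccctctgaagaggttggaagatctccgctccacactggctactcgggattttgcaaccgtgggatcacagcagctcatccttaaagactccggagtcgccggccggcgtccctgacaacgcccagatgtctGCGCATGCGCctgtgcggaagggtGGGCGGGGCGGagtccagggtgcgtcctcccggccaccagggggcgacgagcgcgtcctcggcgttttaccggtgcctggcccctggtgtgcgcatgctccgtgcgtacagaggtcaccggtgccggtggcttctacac
The Timmdc1 window holds 4 ETS matches, at -144, -33, -11 and -8 from the start, of which the last pair overlaps on opposite strands. At least 4 such matches occur in 10 of the 32851 promoters of the table (0.0304%). The Ndufaf2 window holds only an SP match, at -14. The Ndufaf4 window holds an NRF1 sequence that reads as a match on both strands (at -113 and -112) and 2 overlapping SP matches. Across the 8 members, SP letters were found in 7 (35.7% of all promoters), ETS letters in 3 (Timmdc1, Ecsit and Ndufaf1; 8.86% of all), NRF1 letters in 2 (Ndufaf4 and Ndufaf5; 6.25% of all) and YY1 letters (AANATGGC) in Ndufaf3 (6.05% of all). ERR letters (AAGGTCA; 4.72% of all) and CRE letters (TGACGTCA; 1.79% of all) matched none of the 8 windows. A match is a string of letters, and no binding was measured here.

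The comparison of KO with WT under vehicle asks how the knockout genotype differs without the drug. Averaged over F and M, 2 of the 10 members were lower in KO, Ndufaf2 and Timmdc1, and none was higher. Over all genes 6.67% passed the test in this comparison, and 3.80% of all genes passed it in the lower direction. The non-genic share was higher in KO in both letters, with means of 9.24% against 5.99% in F and 12.1% against 10.2% in M. With it as a covariate neither member passed (adjusted p = 0.123 for Ndufaf2 and 0.142 for Timmdc1).

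Timmdc1, the membrane-arm factor, had 17.7, 15.8, 16.9, 17.8 and 20.5 CPM in WT vehicle F samples and 13.6, 12.5, 10.4, 12.6 and 14.1 CPM in KO vehicle F samples. In M the values were 17.7, 16.6 and 17.0 CPM in WT and 15.1, 13.2 and 13.5 CPM in KO. KO samples lay below WT samples without overlap in both letters. The log2 fold change was -0.39 (SE 0.085, adjusted p = 0.00322) for the mean of F and M. It was -0.49 in F (SE 0.104, adjusted p = 0.0041) and -0.30 in M (SE 0.134, adjusted p = 0.341).

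Ndufaf2, the NDUFA12 paralogue, had 11.7, 11.4, 12.8, 15.7 and 12.9 CPM in WT vehicle F samples and 9.65, 9.12, 9.70, 11.5 and 8.47 CPM in KO vehicle F samples. In M it had 12.8, 11.96 and 8.91 CPM in WT and 8.81, 7.23 and 6.52 CPM in KO. The genotypes overlapped in F through the highest KO sample and did not overlap in M. The log2 fold change was -0.49 (SE 0.102, adjusted p = 0.00209) for the mean, which is a level of 0.710 times WT. In F alone it was -0.41 (adjusted p = 0.0459) and in M alone -0.58 (adjusted p = 0.0829). The F call was lost in 8 of 10 fits that left out 1 library. Without KO vehicle L246, L279, L281 or L283 the adjusted p was 0.0852, 0.0944, 0.0944 or 0.0823, and without WT vehicle L252, L278, L295 or L296 it was 0.0572, 0.0723, 0.157 or 0.0925. In M, Ndufaf2 passed once WT vehicle L303 was left out (-0.72, adjusted p = 0.0362). Ndufaf2 lies on chromosome 13, as does Ndufs4, with 30 protein-coding genes between them in GRCm38.p6.

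Acad9, of the MCIA complex, came close to the threshold. It had 31.6, 32.6, 32.8, 34.6 and 36.7 CPM in WT vehicle F samples against 27.6, 31.1, 30.1, 29.9 and 29.4 CPM in KO. In M it had 35.6, 34.2 and 35.8 CPM in WT against 33.9, 31.5 and 31.6 CPM in KO. No KO value reached a WT value in either letter, and the mean log2 fold change was -0.15 (SE 0.051, adjusted p = 0.0591). Its small spread makes this a narrow interval, from -0.25 to -0.05. DESeq2 gave -0.13 with an adjusted p of 0.045, and edgeR one of 0.0494 without KO vehicle L279. KO values lay below WT values without overlap for 2 of the 10 members in F (2.87% of all genes) and for 3 in M (10.3% of all genes), namely Timmdc1 and Acad9 in both and Ndufaf2 in M.

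The other members did not pass the test under vehicle. Among them Ndufaf1 (MCIA) had a mean log2 fold change of -0.19 (95% interval -0.36 to -0.02), Ndufaf7 of -0.15 (-0.27 to -0.03), Ndufaf3 of -0.16 (-0.31 to -0.01), Ndufaf5 (NDUFS7 hydroxylation) of -0.14 (-0.29 to 0.00) and Ndufaf4 of -0.13 (-0.26 to -0.01). Ecsit had -0.03 (-0.15 to 0.09) and Ndufaf6 -0.01 (-0.22 to 0.20). All 10 estimates were below 0, with a median of -0.15, where the median of all genes was 0.02. Of all genes 46.5% had an estimate below 0. With RLE scaling, with the non-genic share or the hippocampal CA score as a covariate, and by DESeq2, 9 members were below 0. The exception was Ndufaf6. With the non-genic share as a covariate the median of the members was -0.095. In F alone 2 members passed, with 4.96% of all genes. Without KO vehicle L283 Ndufaf4 (adjusted p = 0.0325) and Ndufaf7 (adjusted p = 0.0276) passed in F, and Ndufaf7 in the mean (adjusted p = 0.0442). In M alone none passed, with 0.516% of all genes, and there the unadjusted p was under 0.05 for 2 of the 10, Ndufaf2 and Timmdc1, and for 12.2% of all genes. DESeq2 called Ndufaf2 in M (adjusted p = 0.0238). The difference between F and M in the genotype effect was called for no member, with 0.102% of all genes.

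**Figure D2:**
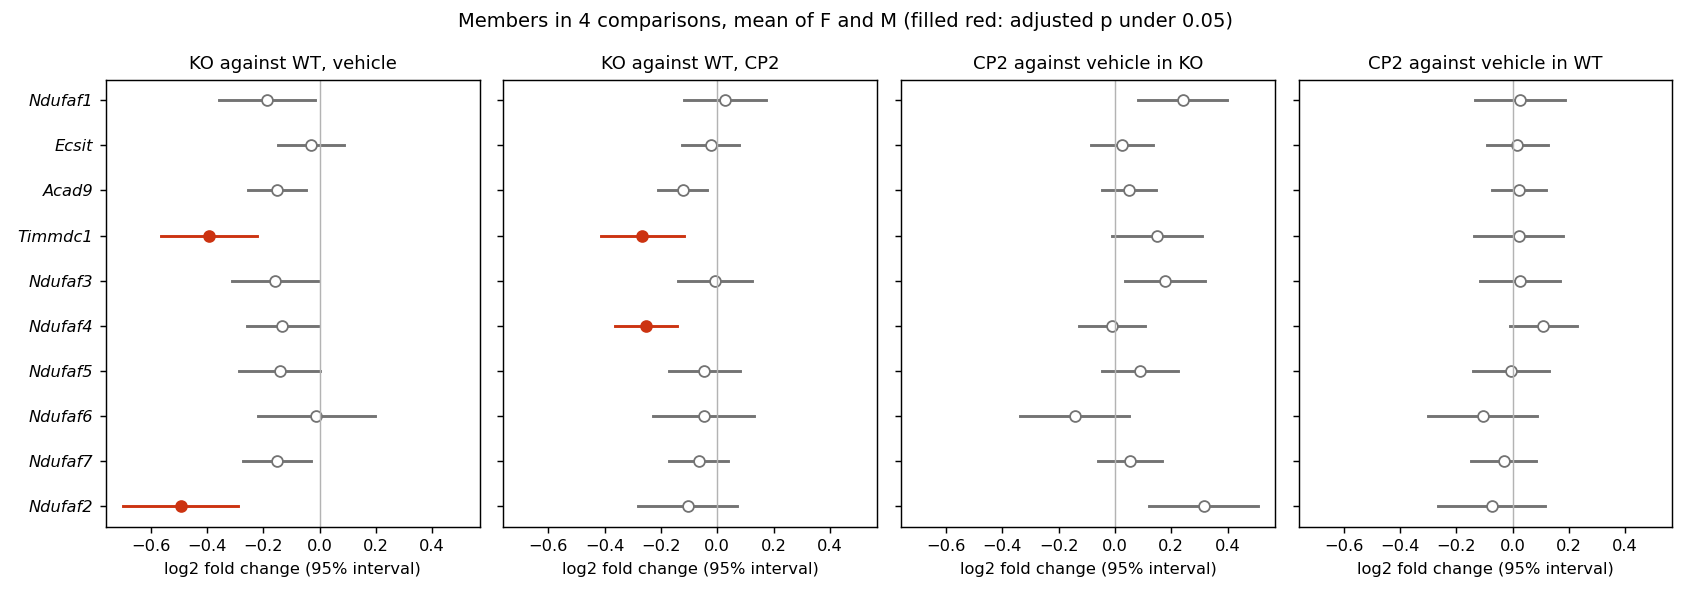
Log2 fold changes (x axis) with 95% intervals for the 10 members (y axis) in 4 comparisons, each the mean of F and M. Filled red points have an adjusted p under 0.05: Ndufaf2 and Timmdc1 in KO against WT under vehicle, and Ndufaf4 and Timmdc1 in KO against WT under CP2. The vehicle and CP2 groups of a genotype serve in several panels, so the panels are not independent.

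Under CP2 the genotype comparison again had 2 members lower in KO, Timmdc1 and Ndufaf4, and none higher, with 11.6% of all genes passing. Of all genes 5.54% were called higher and 6.07% lower. Of the marker lists, 3 of 6 microglia, 1 of 6 astrocyte, 1 of 6 oligodendrocyte and 1 of 8 neuron markers were called higher in KO in the mean. In M alone 4 microglia, 2 astrocyte, 1 oligodendrocyte and 1 neuron marker were, with a median log2 fold change of 0.37 over the 6 microglia markers, and in F none was. Their part in the results on the members was not tested. Timmdc1 had 19.7, 15.8, 21.0, 20.3 and 16.4 CPM in WT CP2 F samples and 11.4, 13.1, 11.9, 14.4 and 16.3 CPM in KO CP2 F samples. In M it had 16.6, 15.8, 16.7, 19.8 and 15.1 CPM in WT and 15.4, 14.2, 18.3, 15.8 and 16.8 CPM in KO. The F groups overlapped through 1 KO sample, and the M groups overlapped throughout. The log2 fold change was -0.27 for the mean (SE 0.073, adjusted p = 0.0127), -0.47 in F (adjusted p = 0.0113) and -0.06 in M (adjusted p = 0.792). The test of F minus M gave -0.41 (SE 0.146, adjusted p = 0.158), so a difference between the letters was not called. Without the KO CP2 M samples L266 and L291, which stood apart from their group in the genes named above, the mean effect on Timmdc1 was -0.22 (adjusted p = 0.0691). Without WT CP2 L257 the effect in F was -0.43 (adjusted p = 0.0528).

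Ndufaf4, the partner of Ndufaf3, had 26.7, 25.9, 30.2, 31.7 and 30.6 CPM in WT CP2 F samples and 25.4, 25.2, 24.4, 25.9 and 23.4 CPM in KO CP2 F samples. In M it had 30.2, 31.0, 26.9, 28.0 and 28.6 CPM in WT and 25.0, 24.6, 24.8, 22.4 and 22.2 CPM in KO. Every M KO sample lay below every M WT sample, and in F the highest KO sample met the lowest WT sample. The log2 fold change was -0.25 for the mean (SE 0.054, adjusted p = 0.00133), -0.28 in M (adjusted p = 0.0125) and -0.22 in F (adjusted p = 0.117). In M, KO values below WT without overlap were found for this member of the 10 and for 6.33% of all genes. The calls on Ndufaf4 held in each of the 20 fits that left out 1 library for the mean and in each of the 10 for M. Ndufaf3, its partner, had a mean log2 fold change of -0.01 (95% interval -0.14 to 0.12). That mean joins estimates of opposite sign, -0.16 in F and 0.15 in M. For Ndufaf3 the F minus M difference was -0.31 (adjusted p = 0.256) and was not called.

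Of the other members under CP2, Acad9 again came closest, with a mean log2 fold change of -0.12 (SE 0.044, adjusted p = 0.0591; DESeq2 0.0232). Acad9 passed without KO CP2 L233, L266 or L298 (adjusted p = 0.0407, 0.0424 or 0.0383) and without WT CP2 L240 or L259 (0.0415 or 0.0475). Ndufaf2 had -0.11 (95% interval -0.28 to 0.07), Ndufaf7 -0.07 (-0.17 to 0.04), Ndufaf6 -0.05 (-0.23 to 0.13), Ndufaf5 -0.05 (-0.17 to 0.08), Ecsit -0.02 (-0.13 to 0.08) and Ndufaf1 0.03 (-0.12 to 0.17). The median of the members was -0.06, against 0.01 for all genes. In F 1 member passed, with 2.00% of all genes, and in M 1 member passed, with 9.99% of all genes. Estimates also differed in sign for Ndufaf1 (-0.13 in F and 0.19 in M) and Ndufaf2 (-0.25 in F and 0.04 in M). For F minus M no member was called (adjusted p = 0.294 for Ndufaf1), with 0.820% of all genes.

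CP2 was compared with vehicle within KO to see what the inhibitor does in mice of the knockout genotype. For the mean of F and M no member passed by edgeR, with 3.91% of all genes called, and 3 of the 10 had an unadjusted p under 0.05, as had 18.1% of all genes. Ndufaf2 (0.31, SE 0.095, adjusted p = 0.051) and Ndufaf1 (0.24, SE 0.079, adjusted p = 0.0724) lay nearest the threshold, and DESeq2 called both (adjusted p = 0.0268 and 0.0484). Ndufaf2 passed without KO CP2 L201, L233 or L298 (adjusted p = 0.0245, 0.0417 or 0.0205) and without KO vehicle L282 or L310 (0.0332 or 0.0313), and Ndufaf1 without L298 (0.0442). In F no member passed by edgeR or DESeq2 (1 had an unadjusted p under 0.05, as had 11.0% of all genes), with 0.0859% of all genes called. In M 2 members rose, Ndufaf2 and Ndufaf3, with 5.10% of all genes passing and 2.36% of all genes higher. The non-genic share fell from a mean of 12.1% under vehicle to 7.33% under CP2 in these groups. Neither call held with that share as a covariate (adjusted p = 0.695 for Ndufaf2 and 0.498 for Ndufaf3). Nor did either hold with the title number as a covariate (0.0709 and 0.0807) or without L266 and L291 (0.0976 and 0.0873). In these groups the share ran from 11.3% to 13.0% under vehicle and from 5.18% to 9.06% under CP2. Title numbers did not overlap between them either, so the fits with a covariate cannot tell that covariate from CP2.

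Ndufaf2 had 8.81, 7.23 and 6.52 CPM in KO vehicle M samples and 12.2, 10.4, 11.1, 8.52 and 12.6 CPM in KO CP2 M samples. The groups overlapped only through L298, the lowest CP2 sample. The log2 fold change was 0.54 (SE 0.146, adjusted p = 0.0217). The KO CP2 M mean was 11.0 CPM, beside 11.2 CPM in WT vehicle M. In F the KO CP2 mean was 10.3 CPM, beside 12.9 CPM in WT vehicle. KO CP2 was not tested against WT vehicle in either letter. Ndufaf3 had 22.7, 20.9 and 19.6 CPM in KO vehicle M samples and 29.2, 25.4, 28.7, 24.3 and 30.1 CPM in KO CP2 M samples, with no overlap. Its log2 fold change was 0.39 (SE 0.108, adjusted p = 0.0278). Ndufaf1, the MCIA member, likewise did not overlap, with 14.9, 15.8 and 12.8 CPM under vehicle and 19.9, 18.0, 18.0, 15.9 and 18.8 CPM under CP2, but did not pass (0.32, adjusted p = 0.113). Values without overlap were found for 3 members in this comparison, Ndufaf1 and Ndufaf3 higher and Ndufaf4 lower under CP2, and for 15.3% of all genes. Both calls also depended on single libraries. Ndufaf2 had an adjusted p of 0.0618, 0.063, 0.0945 or 0.202 without L266, L299, L319 or L322, and Ndufaf3 one of 0.0723, 0.0669, 0.0779, 0.0968 or 0.203 without L266, L292, L299, L319 or L322. In F the estimates were 0.09 for Ndufaf2 and -0.03 for Ndufaf3. The F minus M differences, -0.46 (adjusted p = 0.237) and -0.42 (adjusted p = 0.137), were not called, and 0.691% of all genes were.

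In WT no member changed with CP2, and no gene at all was called by edgeR in the mean (0.00% of genes; 1031 at an unadjusted p under 0.05), in F (0.00%; 679), in M (0.00%; 777) or in F minus M (0.00%; 547). DESeq2 likewise called none of the members. For the mean of F and M the estimates farthest from 0 were those of Ndufaf4, 0.11 (95% interval -0.01 to 0.23), and Ndufaf6, -0.11 (-0.30 to 0.09). The interval was -0.26 to 0.12 for Ndufaf2, -0.14 to 0.18 for Timmdc1, -0.12 to 0.17 for Ndufaf3 and -0.07 to 0.12 for Acad9. The interaction of genotype and CP2 called no member by edgeR or DESeq2 (1 had an unadjusted p under 0.05, as had 14.6% of all genes) and 0.715% of all genes. Its largest estimate among the members was for Ndufaf2, with 0.39 (SE 0.134, adjusted p = 0.147), and its second largest for Ndufaf1, with 0.21 (adjusted p = 0.372).

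Between the letters, averaged over the 4 combinations of genotype and treatment, 2 members were higher in F and none was higher in M, with 10.3% of all genes passing and 4.61% higher in F. Ndufaf5 had a log2 fold change of 0.17 (SE 0.047, adjusted p = 0.0197) and Ecsit of 0.13 (SE 0.038, adjusted p = 0.0203). For Ndufaf5 the WT vehicle samples had 28.2, 24.3, 25.1, 28.8 and 29.2 CPM in F and 25.3, 25.6 and 19.1 CPM in M, so single groups overlapped. Ecsit had 33.9, 31.1, 29.7, 33.4 and 32.1 CPM in WT vehicle F and 27.3, 29.5 and 26.6 CPM in WT vehicle M. Acad9 had an estimate of the opposite sign, -0.08 (adjusted p = 0.104), which DESeq2 called (-0.09, adjusted p = 0.0386). Without the WT vehicle M sample L303 the adjusted p of Ndufaf5 was 0.066. The letters also differed in the non-genic share, 5.99% ± 0.740 (SD, n = 5) in WT vehicle F against 10.2% ± 1.22 (SD, n = 3) in WT vehicle M, and with that share as a covariate neither gene passed (adjusted p = 0.804 for Ndufaf5 and 0.418 for Ecsit).

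The non-genic share moved with several of these comparisons. Under vehicle it was 9.24% ± 2.56 (SD, n = 5) in KO F, and in M 12.1% ± 0.885 (SD, n = 3) in KO. Under CP2 it was 6.02% ± 0.714 (SD, n = 5) in WT F, 7.54% ± 2.13 (SD, n = 5) in KO F, 11.5% ± 1.64 (SD, n = 5) in WT M and 7.33% ± 1.40 (SD, n = 5) in KO M. Within groups, all 10 members had a negative correlation with the share over the 36 samples, after group means were removed. The relation was significant for 3 of 10 in a permutation test within groups, two-sided and adjusted over the 10. Timmdc1 had r = -0.51 (rho -0.49, p = 0.00694, adjusted 0.0347), Ndufaf2 r = -0.49 (rho -0.55, p = 0.00689, adjusted 0.0347) and Ndufaf5 r = -0.44 (rho -0.52, p = 0.0119, adjusted 0.0396). Without the 2 samples farthest from the median share, r was -0.52, -0.49 and -0.42. Over all genes the median r was -0.00, with the 5th and 95th percentiles at -0.47 and 0.52, so Timmdc1 and Ndufaf2 stood below the 5th percentile. Ndufaf5 lay between these percentiles. Of all genes 50.3% had a negative r, and the permutation test was not run over all genes.

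**Figure D3:**
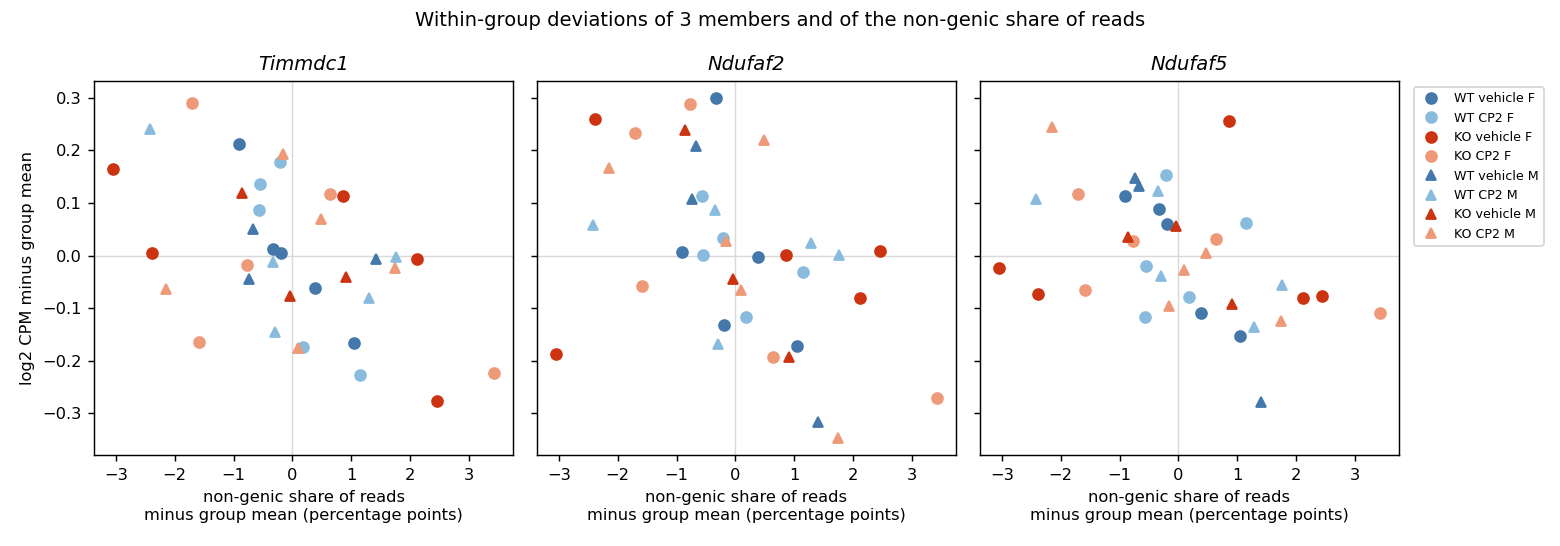
Log2 CPM minus the group mean (y axis) against the non-genic share minus the group mean, in percentage points (x axis), for Timmdc1, Ndufaf2 and Ndufaf5 in 36 samples. Circles are F samples, triangles M samples, and colours mark genotype and treatment. Points fall from upper left to lower right, with r = -0.51, -0.49 and -0.44.

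With the share as a covariate, the vehicle comparison called none of the members. Ndufaf2 fell by 0.34 on the log2 scale (adjusted p = 0.123) and Timmdc1 by 0.26 (adjusted p = 0.142), and 1.14% of all genes were called in place of 6.67%. Under CP2 both calls held, at -0.27 for Ndufaf4 (adjusted p = 0.000884) and -0.33 for Timmdc1 (adjusted p = 0.00127). In KO M the CP2 effect was 0.26 for Ndufaf2 (adjusted p = 0.695) and 0.31 for Ndufaf3 (adjusted p = 0.498), with 0.00% of all genes called in place of 5.10%. There the share did not overlap between vehicle and CP2, so the share and CP2 cannot be told apart. The part of the share in these results was not tested beyond this fit. Region markers also moved: 3 of 8 hippocampal CA markers were lower in KO vehicle F than in WT vehicle F, where their mean log2 CPM was 3.51 ± 0.074 against 4.29 ± 0.213 (SD, n = 5 each). In M none of the 8 passed under vehicle, 7 had estimates above 0, and the mean was 4.16 in KO against 3.69 in WT. With that mean as a covariate Ndufaf2 and Timmdc1 remained called under vehicle. In KO M, 3 of 6 microglia markers were higher under CP2, with a median summed level of 374 CPM against 286 CPM under vehicle. In the same comparison 1 of 6 astrocyte and 1 of 6 oligodendrocyte markers were called higher, and the 6 choroid plexus markers had a median summed level of 1952 CPM against 1029 CPM with none called. The part of these markers in the result was not tested.

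**Figure D4:**
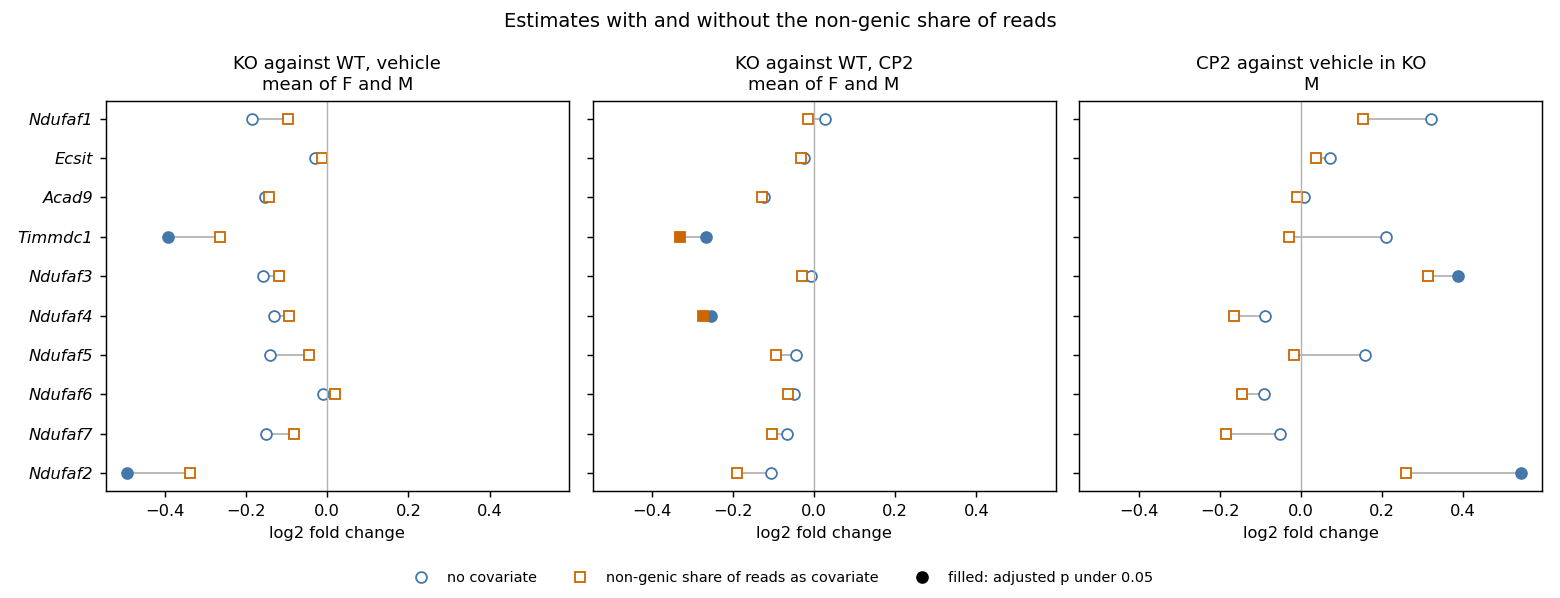
Log2 fold changes (x axis) of the 10 members (y axis) without a covariate (blue circles) and with the non-genic share as a covariate (orange squares), in 3 comparisons. Filled symbols have an adjusted p under 0.05. Timmdc1 and Ndufaf4 stay filled under CP2, and no symbol with the covariate is filled in the other panels.

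Among the 45 pairs of members, the within-group deviations over 36 samples had a median Pearson r of 0.11, and 31 were above 0. The mean r over all pairs of genes was 0.00096. The highest r was 0.61 for Ndufaf2 and Ndufaf3, followed by 0.55 for Ndufaf7 and Timmdc1 and 0.51 for Ndufaf2 and Ndufaf5. The lowest was -0.33, for Ndufaf3 and Ndufaf4, whose products bind each other. Within the MCIA complex, r was 0.18 for Ndufaf1 and Ecsit, 0.05 for Ndufaf1 and Acad9 and 0.09 for Acad9 and Ecsit. With the non-genic share regressed out, the median r was 0.08 and 27 pairs were above 0. All pairs share libraries and their scaling, and these values are a description.

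**Figure D5:**
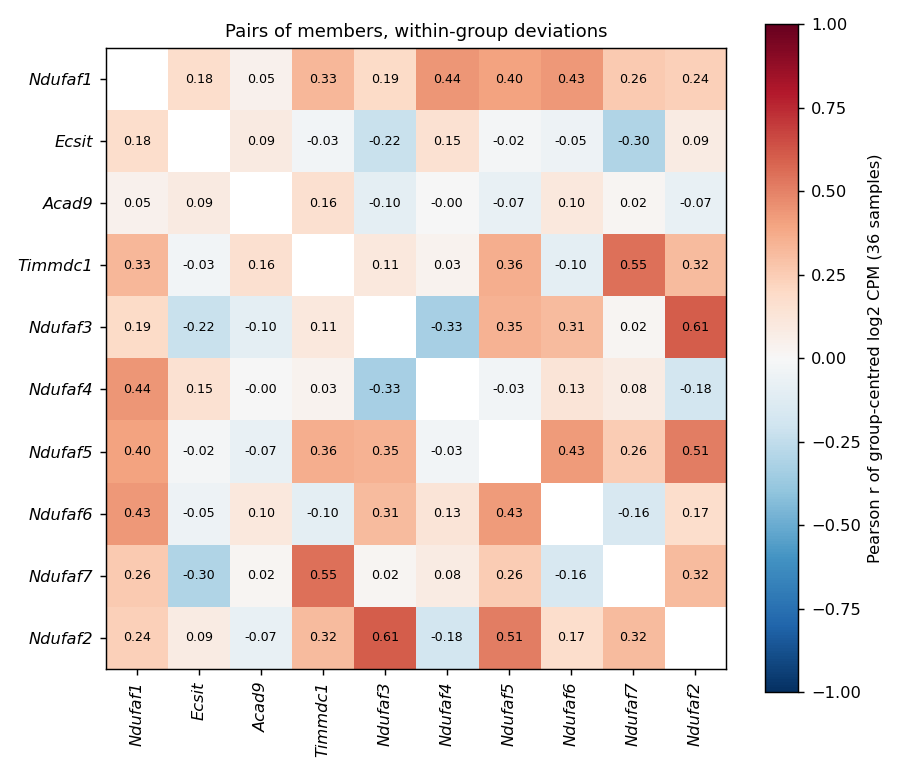
Pearson r between members (rows and columns) over 36 samples after group means were removed, with red for positive and blue for negative values. The darkest red cells are Ndufaf2 with Ndufaf3 (0.61) and Ndufaf7 with Timmdc1 (0.55), and the darkest blue cell is Ndufaf3 with Ndufaf4 (-0.33).

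The genes most like each member in these deviations were searched among 15420 genes (mean CPM of 1 or more). Each r given is among the highest of that search, so selection adds to its size. The values are a description without a test, and a shared function was not tested. Ndufaf5 was most like Eef1e1 (r = 0.86), which encodes a factor of the aminoacyl-tRNA synthetase complex, and Atf4 (0.75), a transcription factor of the integrated stress response. Ndufaf3 was most like the prefoldin subunit Pfdn6 (0.83), the complex I subunit Ndufc2 (0.83) and Timm13 (0.83), a chaperone of mitochondrial import. Ndufaf2 was most like the RNA polymerase subunit Polr2f (0.79), Pfdn1 (0.77) and Mea1 (0.77). Ndufaf1 was most like the mitochondrial ribosomal gene Mrpl42 (0.76), Adprm (0.74) and Tmem126b (0.72), which encodes another MCIA member. Timmdc1 was most like Adipor1 (0.76), Acsbg1 (0.74) and Hexa (0.74), and Ndufaf7 like Ak4 (0.76), Ncbp2 (0.74) and Nrp1 (0.74). Ndufaf6 was most like the complex I subunit Ndufv2 (0.68), and Ndufaf4 like Mtus1 (0.67), Mrps30 (0.67) and Vangl1 (0.65). Acad9 and Ecsit had the weakest nearest genes, Slitrk3 (0.55) and Slu7 (0.61).

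Other genes of the pathway give the setting of these results. Of 10 further complex I assembly genes tested, 3 were lower in KO under vehicle for the mean of F and M: Tmem126b (-0.32, adjusted p = 0.0188), Tmem126a (-0.25, adjusted p = 0.0353) and Tmem70 (-0.23, adjusted p = 0.0372), and none was higher. In that comparison 3.80% of all genes were called lower. In F alone 1 of the 10 was called higher and 0 lower, with 2.02% of all genes higher and 2.94% lower. These further genes, and the subunit genes below apart from Ndufs4, were not examined with the non-genic share as a covariate. Under CP2 1 of the 10 passed, Lyrm2, higher in KO (0.31, adjusted p = 0.018), where 5.54% of all genes were called higher. Of 36 nuclear subunit genes, 6 were lower under vehicle, among them Ndufs4 and Ndufa12 (-0.24, adjusted p = 0.0351), whose product takes the place of NDUFAF2. Of 7 mitochondrially encoded subunits mt-Nd2, the subunit around which the MCIA complex acts, was lower (-0.37, adjusted p = 0.0039). Ndufs7, the substrate of NDUFAF5, had -0.10 and did not pass (adjusted p = 0.331). The list medians under vehicle were -0.15 for the members, -0.12 for the further assembly genes and -0.13 for the nuclear subunits.

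Under CP2 the list medians differed in sign for the mean of F and M. The genotype effect had a median of -0.06 in the members, of which 2 were lower. In the nuclear subunits the median was 0.07, and 3 of 36 were higher (Ndufb9, Ndufb4 and Ndufa6) and Ndufs4 was lower. Of all genes 5.54% were called higher and 6.07% lower in that comparison. In F both medians were below 0 (-0.11 and -0.02), and in M they were -0.05 and 0.19. For CP2 against vehicle in KO M the medians were 0.12 in the members and 0.30 in the nuclear subunits, with 2 of 10, 8 of 36 and 2.36% of all genes higher. In F they were 0.08 and 0.07, with none called in either list. Between the letters, 28 of 36 nuclear subunits, 2 of 10 members and 4.61% of all genes were higher in F. With the non-genic share as a covariate no member was called between the letters, and 0.547% of all genes were in place of 10.3%. The nuclear subunits, apart from Ndufs4, were not examined with that covariate in any comparison. These are counts and medians of separate lists in the same samples, and differences between the lists were not tested.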

How the data were processed

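PolyA-selected RNA of 36 brain samples had been made into Illumina TruSeq libraries, per the labels' protocols. The submitters' processing notes name STAR, HTSeq and the build GRCm39; the annotation release, strand setting and read filters are not given in the sources used here. The deposited values are raw counts per Ensembl gene by the authors, with 5 summary rows that were kept out of library sizes and tests. All 36 columns matched a sample title, and groups come from genotype, treatment and the title letter. Gene names came from GENCODE M21 (52073 of 56980 identifiers, 91.4%); coordinates and neighbours are those of RefSeq GRCm38.p6 and were not converted.

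Counts were tested with edgeR 4.0.16 in R 4.3.3 (TMM, filterByExpr on 8 groups, robust quasi-likelihood fit, all 36 samples, no covariates, 18 contrasts), with Benjamini-Hochberg adjustment over 25601 genes within a contrast and a call under 0.05. The SE of an estimate is its absolute size over the square root of F. CPM uses TMM library sizes, and log2 CPM a prior count of 2. Alternatives were DESeq2 1.42.0, RLE scaling, no filter, fewer groups, left-out libraries, and the non-genic share (reads assigned to no annotated gene), a hippocampal CA score or the title number as a covariate. Correlations with that share used 100000 permutations within groups. No replicate numbers are shared between groups. Each sample was treated as a separate unit, and the tests set each effect against the spread between these samples. The titles do not say that each sample is a separate mouse. Depth was 46124548 to 88559920 gene counts.

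On simulated data, 51% of genes changed 1.3-fold and 95% of those changed 2-fold were called in KO against WT under vehicle (mean of F and M, 24783 genes tested), and 17% and 86% in M alone. These rates come from 1 draw of 100 genes per fold, taken from genes with higher counts, and they vary with the genes drawn. Group differences in the non-genic share were not simulated, so the rates may not hold for the real comparison. Named are all 10 members and Ndufs4, at most 4 called genes per direction of other lists, and the 3 most similar genes of a member. The members and lists were chosen with earlier results of these data known. Genes around Ndufs4 were not analysed here, since no gene table of GRCm39 was used.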

Additional observations from a re-analysis of the deposited data

Results flagged for a closer look

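Of 60 groups of 5 samples tested (10 members), 1 held a sample far from the others, where chance alone would give about 1 in 20. It was Ndufaf5 in KO vehicle F, where sample L246 had 29.2 CPM and the next highest sample 24.1 CPM. That gap was 0.845 of the group's range.

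Ndufaf4 in the M samples moved in opposite ways with CP2 in the 2 genotypes. In WT every CP2 sample lay above every vehicle sample (log2 fold change 0.17), and in KO every CP2 sample lay below every vehicle sample (-0.089). Groups of 5 and 3 samples did not overlap for 4.54% of all genes in WT M and for 15.3% in KO M. Neither effect passed the test (adjusted p = 1 in WT and 0.632 in KO), and their difference within M was not tested. The interaction averaged over F and M was -0.12 for Ndufaf4 (adjusted p = 0.521).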

How the results depend on the processing

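No called result changed direction under any alternative. Numbers below are members called out of 10. For KO against WT under vehicle, the mean of F and M had 2 called, 0 with the non-genic share as covariate, 3 by DESeq2, with the title number covariate or without the gene with the most counts (Acad9 added), and 2 to 3 when 1 library was left out. In F there were 2, 0 with that covariate, and 1 with RLE size factors, with no filter, without L266 and L291, or with only the groups compared, and 3 without the gene with the most counts (1 to 3 leaving out 1 library). In M there were 0, and 1 by DESeq2 (0 to 1). For KO against WT under CP2, the mean had 2, 1 without L266 and L291, and 3 by DESeq2 (2 to 3). In F there was 1, and 0 with only the groups compared (0 to 1). In M there was 1, and 2 by DESeq2 (1 in every fit leaving out 1 library). For CP2 against vehicle in KO, the mean had 0, 2 by DESeq2, and 1 with the hippocampal CA covariate or without the gene with the most counts (0 to 2). In M there were 2, 1 with the CA covariate or only the groups compared, and 0 with the share covariate, the title number covariate or without L266 and L291 (0 to 2). Between F and M there were 2, 0 with the share or title number covariate, and 3 by DESeq2 (1 to 3). The cause was not tested. The comparisons not named here had 0 called in every fit. With Spearman in place of Pearson, 3 members again related to the non-genic share.

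Over all genes, the vehicle comparison called 6.67%, with 1.14% to 11.7% over the alternatives; under CP2 it called 11.6% (5.67% to 18.4%), and CP2 in KO M called 5.10% (0% to 10.5%). By DESeq2, 54.9% of calls under vehicle in F were higher, against 40.8% by edgeR. Counting error was 1.87% at the highest member count and 6.11% at the lowest. No paired analysis was possible because no number is shared between groups.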
